A study of Mus musculus with 4 samples.

Results

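Loss of Ets2 in normal mammary fibroblasts was read from 2 of the 4 arrays of the series. The array labelled Ets2 null with no oncogene in the epithelium was set against the array labelled Ets2 present with no oncogene, and every difference below is the log2 level of the first minus that of the latter. Both arrays held RNA of fibroblasts from the mammary glands of FVB/N mice aged 9 weeks, females by the study's methods, grown in DMEM with serum to the second passage. The control carried the genotype Ets2db/loxP, that is 1 conventional knockout allele (db) and 1 conditional allele (loxP), and the null carried Fsp-cre;Ets2db/loxP. Fsp-cre places the Cre recombinase under the promoter of Fsp1, the gene now called S100a4. The knockout allele was thus common to both, and the comparison set 1 intact copy of Ets2 against none. Cre was present on the null side only, so its own effect and that of Ets2 loss cannot be told apart. The other 2 arrays came from mice with the PyMT oncogene in the mammary epithelium, the control being PyMT;Ets2db/loxP and the null PyMT;Fsp-cre;Ets2db/loxP, and are used only for values side by side. With 1 array a group there is no replicate error, no test and no p-value, and how many mice gave the RNA of each array is not given in the sources used here.

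Ets2 is a transcription factor of the ETS family, whose members bind DNA around a GGAA core. It is phosphorylated by MAP kinases downstream of Ras, and it often acts beside AP-1 (Fos and Jun dimers) at promoters of proteases and growth response genes. Mammary fibroblasts lay down the collagens and proteoglycans around the ducts and secrete growth factors, chemokines and matrix-degrading enzymes.

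Ets2 itself was measured by 1 probe set (a set of short probes for 1 transcript), at 11.86 with Ets2 present and 11.89 in the null. Where those probes lie relative to the deleted part of the gene is not known, so this value checks nothing. The array's 4 control probe sets for cre, which also take up a spiked-in control RNA, differed by between -0.00 and 0.16, which likewise says nothing about the transgene. The cells bore their label: 19 of 20 fibroblast markers on the array were at or above 4.63, the 40th percentile of the whole table, on both arrays. Vim (13.21 and 13.21), Col1a2 (13.09 and 13.06) and S100a4 (12.88 and 12.97) were near the top of the scale in each, while Dpt, a small matrix protein, was 1.41 higher and Fap, a membrane protease of activated fibroblasts, 0.98 lower in the null. Of the markers of other cells, 13 of 14 for lymphocytes, 20 of 27 for epithelium, 15 of 19 for endothelium, 13 of 26 for macrophages and 8 of 11 for mast cells were under that level on both arrays. So were 22 of 25 for skeletal muscle, 13 of 25 for adipocytes, 6 of 11 for Schwann cells, 4 of 9 for pericytes and 4 of 5 for erythroid cells. Defining genes such as Ptprc, Cd3e, Epcam, Pecam1 and Kit were among those under the level. At or above it on both arrays were 10 macrophage markers, Cd53 (10.81 and 11.24) and Lyz1 (8.29 and 8.22) among them. So were 3 endothelial markers, such as Flt1 (9.02 and 8.43), and the mast cell markers Gata2 (9.84 and 9.35) and Mcpt8 (7.27 and 6.09). The same held for 11 adipocyte markers, Lpl (11.36 and 11.26) and Fabp4 (7.64 and 6.82) among them, and for the erythroid Hba-a2 (8.91 and 8.75). The summed level (log2 of the summed linear values) went from 11.52 to 11.78 for macrophage markers and from 10.19 to 9.67 for mast cell markers. It went from 9.69 to 9.38 for endothelial markers and from 9.24 to 8.96 for epithelial markers. Such a sum follows its brightest members, here Cd53 for macrophages and Gata2 and Mcpt8 for mast cells. Of 20 kept macrophage markers 12 were lower in the null (median -0.09). The part of these markers in the differences below was not tested. Of the epithelial markers, Krt18 (8.05 and 6.72) was lower in the null and Trp63 was 2.00 higher from a value under the level. The 5′ probe set for actin was 0.60 lower in the null and the 3′ one 0.18 lower, whereas the Gapdh probe sets differed by at most 0.03. In bulk RNA, fewer cells of a type and less RNA per cell cannot be told apart.

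The arrays of the normal pair were close to each other over most genes. Of 12394 genes on the array, 8687 reached 4.63 on at least 1 of the 4 arrays and were kept, and the median difference over them was -0.02 with an SD across genes of 0.48. Among kept genes, 79.6% lay within 0.5 of 0. At least 2-fold higher in the null were 262 genes (3.02% of those kept) and at least 2-fold lower 209 (2.41%), and the 4-fold limit was passed upward by 25 (0.288%) and downward by 7 (0.0806%). Most of these counts came from dim genes. Where both arrays were at or above 4.63 (7473 genes), 2.66% were at least 2-fold apart, against 22.4% of the genes with an array under it. With both arrays measured, 118 genes (1.58%) were at least 2-fold higher in the null and 81 (1.08%) at least 2-fold lower, and 12 and 0 of them passed 4-fold. Above a mean level of 12, 0 of 259 genes were 2-fold apart.

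**Figure D1:**
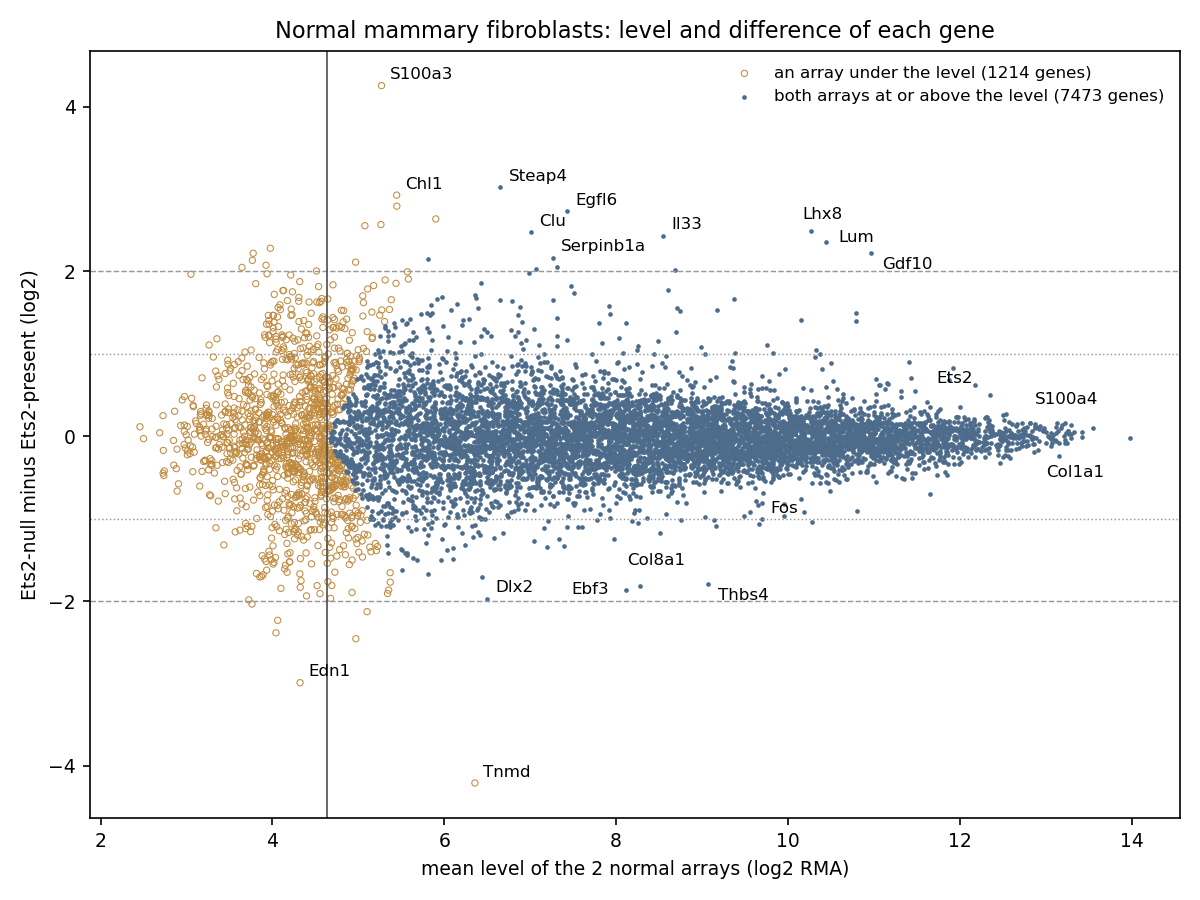
Mean log2 level of the normal pair (horizontal) against the log2 difference, Ets2-null minus Ets2-present (vertical), 1 point per kept gene, hollow where an array was under 4.63 (vertical line), with dotted lines at 2-fold and dashed lines at 4-fold. The spread narrows to the right, and S100a3 and Tnmd, the points furthest from 0, are hollow.

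**Figure D2:**
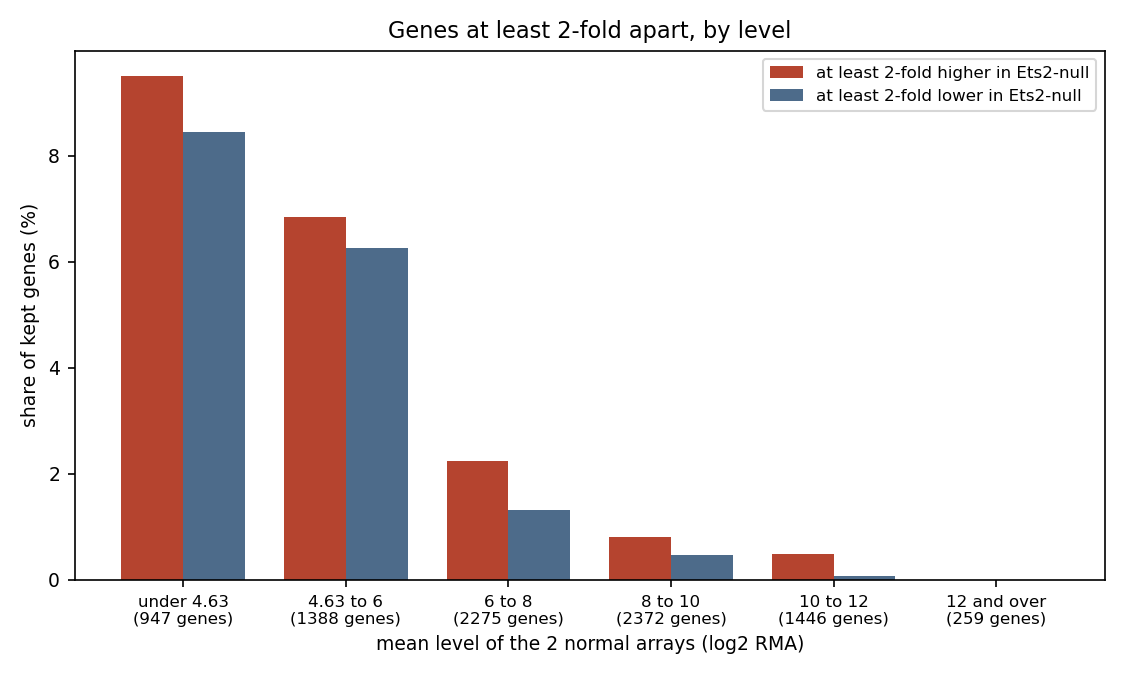
Share of kept genes (percent) at least 2-fold higher (red) or lower (blue) in the normal Ets2-null array, in bins of mean log2 level with the number of genes under each. The shares drop from 9.50% and 8.45% in the dimmest bin to 0 in the brightest.

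Genes carried by more than 1 probe set gave the only repeat measurement within this pair. Probe sets of a gene share the array and the RNA, so their agreement says nothing about other mice. In 3378 genes with 2 kept probe sets, the SD of the disagreement between their differences was 0.48. Of 78 genes whose brightest probe set was at least 2-fold apart, the second agreed in direction in 60 and was also at least 2-fold apart in 29, of which 21 were higher and 8 lower in the null. Among the 29 with no value under the level were Clu (2.48 and 2.58), Serpinb1a (2.17 and 2.21), Nrep (2.05 and 2.11) and Pcsk5 (1.66 and 1.66), which encodes a proprotein convertase. Rab3c (1.68 and 1.81) and Gm6958 (1.86 and 1.90) were also higher by both, but their second probe set had a value under the level. For Spock1, a testican proteoglycan (1.90 and 2.18), Gria1, a glutamate receptor subunit (1.91 and 1.82), Ddit4l, an inhibitor of mTOR signalling (1.70 and 2.25), and Hpgd (1.79 and 1.92), both probe sets had one. With low values raised to 4.63 these differed by 1.63, 1.90, 1.27 and 1.37. Lower by both with every value at or above the level were Col8a1 (-1.82 and -1.44), Itm2a (-1.10 and -1.44), the urea transporter Slc14a1 (-1.03 and -1.36) and Runx1t1 (-1.02 and -1.32). Ebf3 (-1.86 and -1.99), Rnf128 (-1.62 and -1.19) and Pag1 (-1.50 and -1.12) had a value under it in the second probe set. Meox2 (-1.53 and -2.05) had one in both, and raised it differed by -0.15. For Ebf2 the second probe set did not repeat the first, at -0.42 against -1.71.

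**Figure D3:**
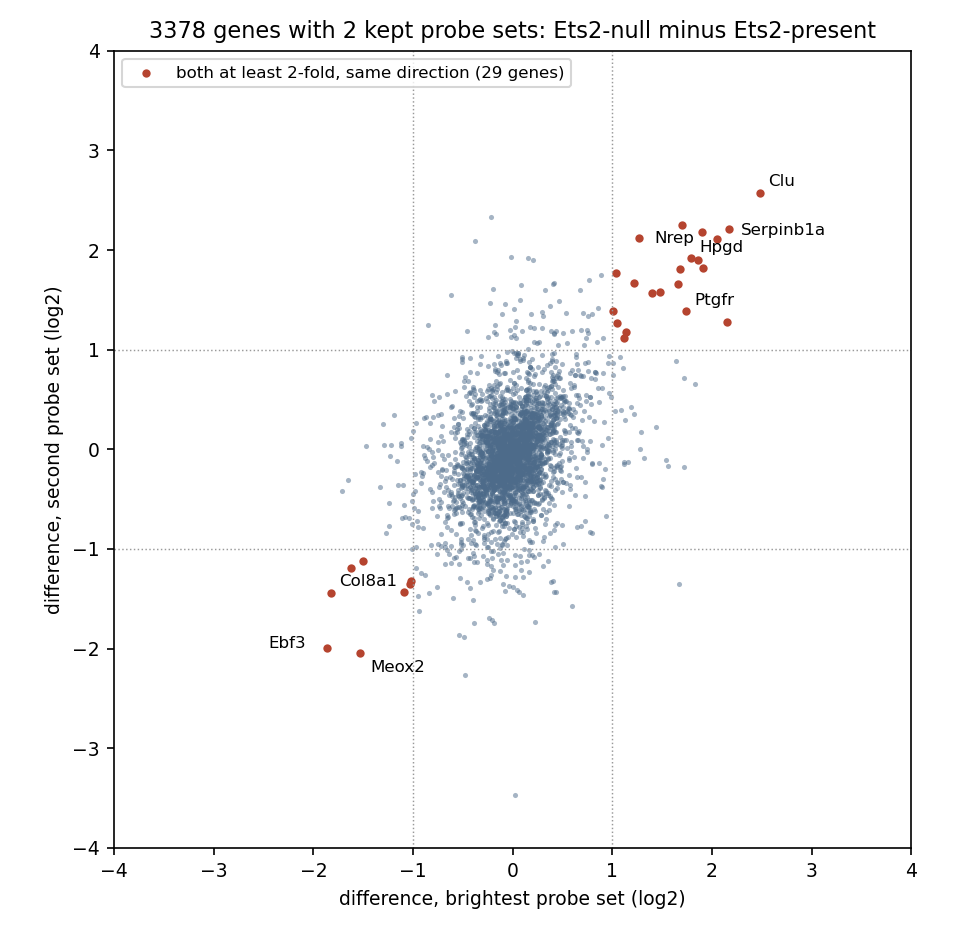
Log2 difference (Ets2-null minus Ets2-present, normal fibroblasts) of the brightest probe set (horizontal) against that of the second (vertical) in 3378 genes. The 29 red points are at least 2-fold apart by both probe sets in the same direction, 21 at upper right and 8 at lower left.

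The genes furthest above 0 with both arrays measured included several that encode secreted proteins. Steap4, a metalloreductase for iron and copper, was at 5.14 with Ets2 present and 8.16 in the null (3.02). Egfl6, a secreted matrix protein with EGF repeats, was at 6.06 and 8.80 (2.73). Among the brightest, Lhx8, a LIM homeobox transcription factor, went from 9.02 to 11.51, Lum (lumican, a proteoglycan of collagen fibrils) from 9.26 to 11.62 and Gdf10, a BMP-related ligand, from 9.86 to 12.09. Clu, a secreted chaperone, was at 5.77 and 8.25, and Il33, a nuclear cytokine of the interleukin-1 family, at 7.33 and 9.77. The remaining 5 of the 12 were Serpinb1a, an inhibitor of neutrophil proteases (6.18 and 8.34), Hlf, a bZIP factor of the circadian PAR family (4.74 and 6.89), Nrep (6.29 and 8.34), Chdh, the mitochondrial choline dehydrogenase (6.06 and 8.09), and Saa3, an acute-phase apolipoprotein (7.68 and 9.70). In all 12 the level in the null was above both PyMT arrays, though only narrowly for Serpinb1a (8.34 against 8.26 in the PyMT null array). The 12 were picked for a high value on the normal null array, so this is in part built in. With all probe sets of the gene averaged, Steap4 was 1.55 higher.

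**Figure D4:**
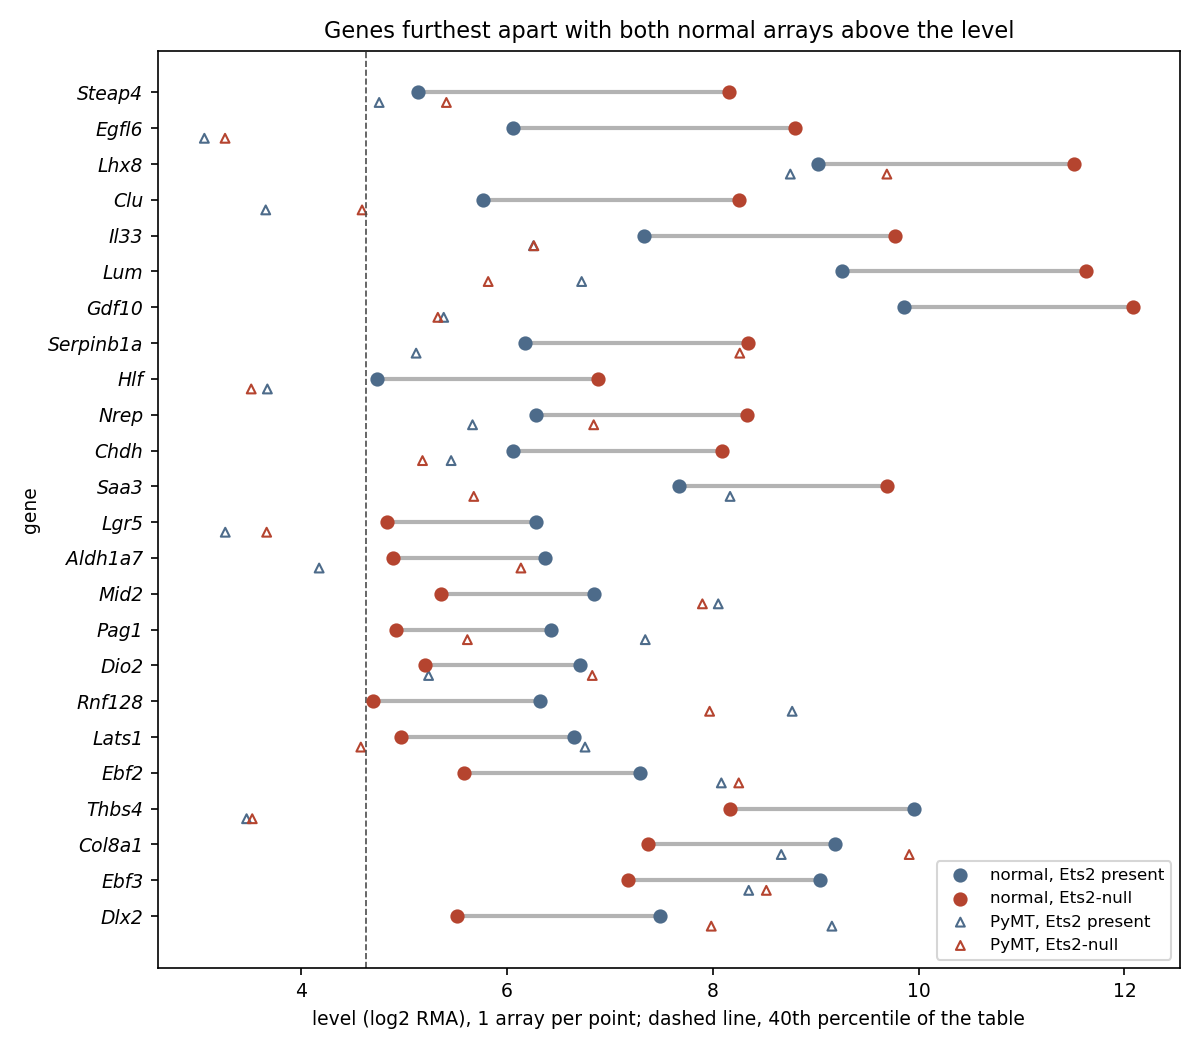
Log2 level on each array of the 12 highest and 12 lowest genes with both normal arrays at or above 4.63 (dashed line), with filled circles for the normal pair, joined by a grey bar, and hollow triangles for the PyMT pair (blue, Ets2 present; red, Ets2-null). The bars of the upper genes span 2.02 to 3.02 and those of the lower genes 1.45 to 1.97, while several triangles lie far from the bars.

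The promoters of Steap4 and Il33 are shown because these members, both far above 0, hold letters of an ETS core near their start sites (RefSeq, GRCm38.p6, the most upstream start, 250 bases before to 50 after). Capitals mark matches to CCGGAA or AGGAAG on either strand. The windows are chr5:7960222-7960521 (plus strand) and chr19:29924863-29925162 (plus strand).
Steap4: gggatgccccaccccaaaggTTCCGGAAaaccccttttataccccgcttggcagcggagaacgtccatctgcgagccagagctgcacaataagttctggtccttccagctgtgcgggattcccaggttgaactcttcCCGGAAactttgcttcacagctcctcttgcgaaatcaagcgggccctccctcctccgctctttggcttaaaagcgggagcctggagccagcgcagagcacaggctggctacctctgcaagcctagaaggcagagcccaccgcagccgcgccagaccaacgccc
Il33: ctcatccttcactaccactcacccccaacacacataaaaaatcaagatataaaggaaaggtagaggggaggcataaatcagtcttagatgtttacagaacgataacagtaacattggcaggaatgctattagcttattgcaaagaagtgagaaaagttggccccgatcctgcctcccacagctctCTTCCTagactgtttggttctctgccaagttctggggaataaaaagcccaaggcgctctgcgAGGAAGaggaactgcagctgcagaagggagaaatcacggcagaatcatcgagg

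Steap4 held CCGGAA in 2 places, 1 of them read on both strands, and Il33 held AGGAAG in 2 places. Of the other windows searched for genes of this group, that of Lhx8 held AGGAAG in 1 place. Those of Egfl6 and Gdf10 held none of the motifs, so the windows shown do not stand for the group. A match of letters is a description and not a binding site.

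The genes furthest below 0 with both arrays measured included several transcription factors. Dlx2, a homeobox factor, was at 7.49 with Ets2 present and 5.51 in the null (-1.97). The early B-cell factors Ebf3 and Ebf2, which also act in mesenchymal and adipocyte progenitors, were at 9.04 and 7.18 and at 7.30 and 5.58. The matrix genes among them were bright on both arrays, Col8a1, a short-chain collagen (9.19 and 7.37), and Thbs4, a thrombospondin of tendon and muscle (9.96 and 8.17). Lats1, a kinase of the Hippo pathway, was at 6.65 and 4.98, and Dio2, the deiodinase that activates thyroid hormone, at 6.71 and 5.20. Lgr5, a receptor for R-spondins, was at 6.28 and 4.84, Aldh1a7, an aldehyde dehydrogenase, at 6.37 and 4.89, and the ubiquitin ligases Rnf128 and Mid2 at 6.32 and 4.70 and at 6.85 and 5.36. Pag1, an adaptor that binds the kinase Csk, was at 6.43 and 4.93. In the PyMT pair Lats1, Pag1 and Dlx2 were at least 2-fold lower in the null as well (-2.18, -1.73 and -1.17), Aldh1a7, Dio2 and Col8a1 were at least 2-fold higher (1.96, 1.59 and 1.24, Aldh1a7 from a value under the level), and Thbs4 was under the level on both PyMT arrays.

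S100a3, a calcium-binding S100 protein of hair follicles, had the largest difference as measured, but its control value was under the level (3.14 with Ets2 present, 7.40 in the null). With low values raised to 4.63 it was 2.76 higher, behind Tnmd and Steap4. The PyMT pair gave like levels, 3.19 and 7.90. S100a3 lies in the S100 gene cluster on chromosome 3 close to S100a4, the gene whose promoter drives Cre, with S100a2 between them in the RefSeq order. No other S100 gene there was at least 2-fold apart with both arrays measured: S100a1 was 0.90 higher, S100a13 0.22 higher, S100a16 0.31 lower, S100a4 0.09 higher and S100a6 0.01 lower. The second probe set of S100a1 differed by 0.04. Of the other kept members of the family, S100a10 differed by 0.06 and S100g by -0.24, and S100b, 0.27 higher, was under the level on both arrays. S100a5, the neighbour on the other side of S100a4, was under the level on both normal arrays (3.84 and 3.08). S100a8, S100a9 and S100a14 were under it on both as well, S100a9 at 2.99 and 4.23. The S100a3 promoter, from the same RefSeq table (chr3:90584409-90584708, plus strand), is shown because its gene was the furthest apart as measured, and it held none of the motifs searched.
S100a3: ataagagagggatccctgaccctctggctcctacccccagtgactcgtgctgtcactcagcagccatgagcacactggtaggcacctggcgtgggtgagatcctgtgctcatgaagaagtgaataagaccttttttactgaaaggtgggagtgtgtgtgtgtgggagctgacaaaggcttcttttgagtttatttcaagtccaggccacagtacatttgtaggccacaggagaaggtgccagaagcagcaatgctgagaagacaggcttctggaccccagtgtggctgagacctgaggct

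Among genes with an array under the level, 13 were at least 4-fold higher and 7 at least 4-fold lower. Their size depends on a background value, so levels are given beside what remained with low values raised to 4.63. Tnmd (tenomodulin, a tendon membrane protein) was well measured with Ets2 present, at 8.46, and at 4.25 in the null, and with low values raised its difference was -3.83. Chl1, an adhesion molecule, Cacna1d, a calcium channel subunit, and Anpep, an aminopeptidase, reached 6.91, 6.84 and 7.22 in the null from 3.98, 4.05 and 4.58. By contrast Zg16, Reg1 and Zfp352 stood at 4.67, 4.89 and 4.83 in the null, just above the level, and with low values raised their differences were 0.04, 0.25 and 0.20. Rdh12, Ptpn20, Cd84, Atf7ip2, Saa1 and Zfr2 completed the higher set, with 1.92, 1.72, 1.39, 0.88, 0.48 and 0.33 so raised. The lower set also held Ctnnd2, Selp, Edn1, Tnni2, Mettl27 and Cyp4a12a, at -1.57, -1.53, -1.19, -0.60, -0.55 and -0.15 so raised.

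Gene lists were described by how many kept members were higher or lower in the null and by their median, beside a median of -0.02 over all kept genes, of which 47.1% were higher. Genes without a probe set named here are not counted.

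**Figure D5:**
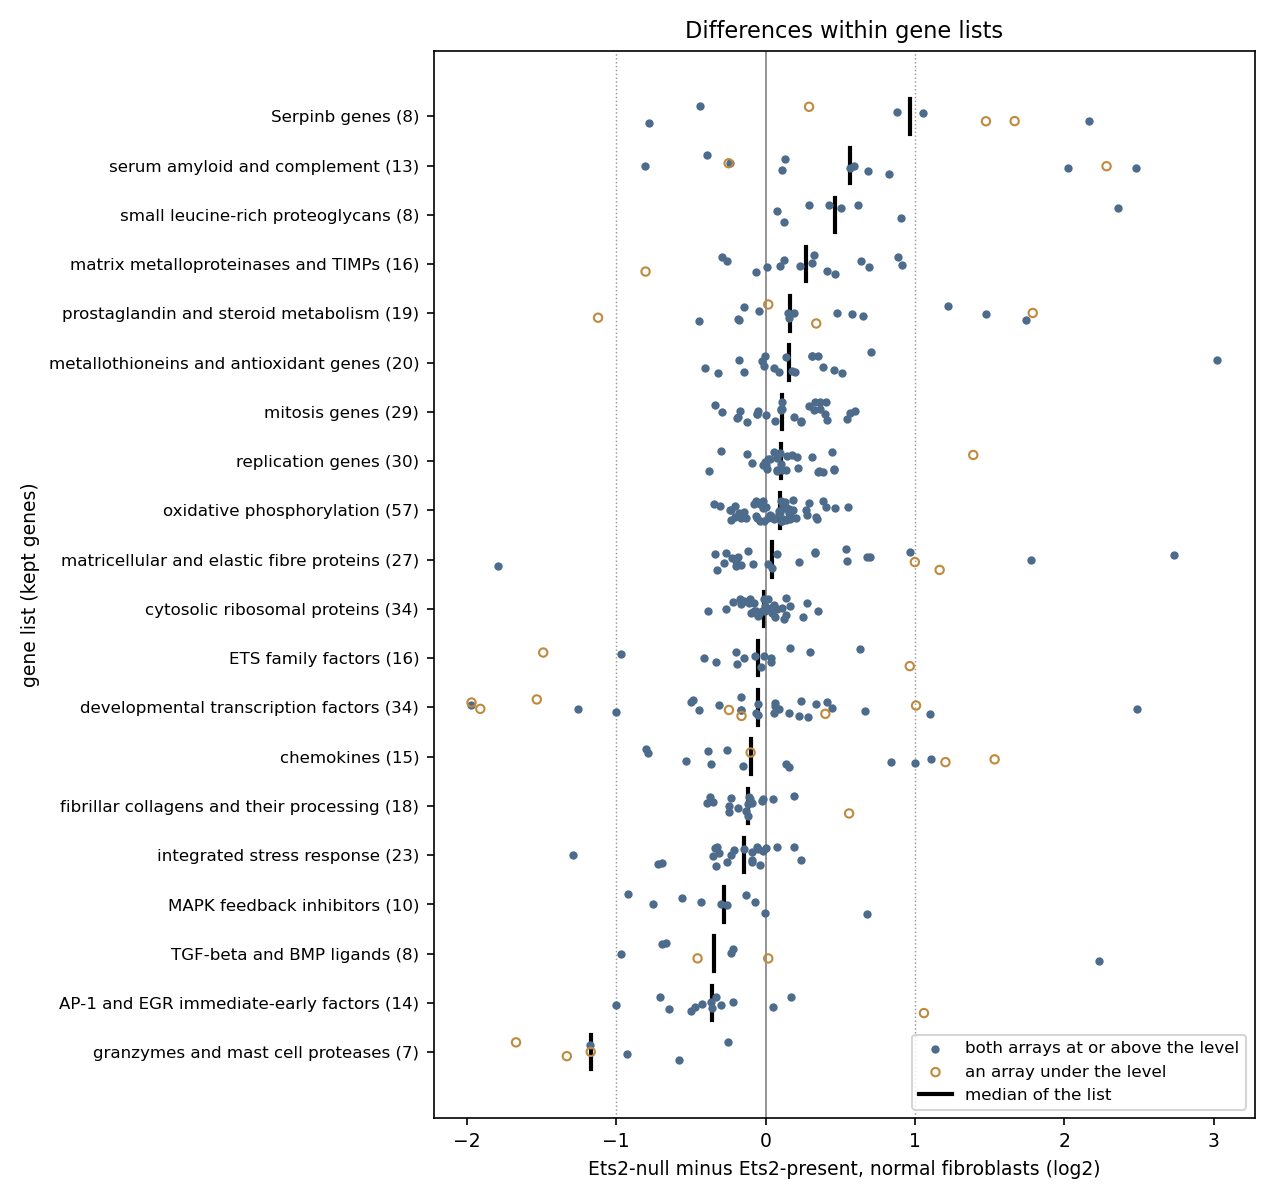
Log2 difference (Ets2-null minus Ets2-present, normal fibroblasts) of every kept member of 20 gene lists, with the number kept in brackets, black bars at list medians, hollow points where an array was under 4.63 and dotted lines at 2-fold. Medians run from 0.97 for Serpinb genes to -1.17 for granzymes and mast cell proteases, and those of mitosis, replication and ribosomal genes lie within 0.12 of 0.

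Immediate-early factors and the inhibitors that MAP kinase signalling induces were mostly lower in the null. Of 14 kept AP-1 and EGR factors 11 were lower (median -0.36), 1 of them at least 2-fold. Fos, a partner of Jun in AP-1, was at 10.20 and 9.19, Egr1 was 0.70 lower and at 11.30 in the null, Klf2 was at 6.59 and 5.95, Myc at 7.53 and 7.03 and Egr2 at 10.69 and 10.21. Jun and Jund were near 0 (0.17 and 0.05), and Fosl2, 1.06 higher, was under the level with Ets2 present. Fosl1, Junb, Ier3, Srf, Klf4 and Klf6 lay between -0.42 and -0.22. Of 10 MAPK feedback inhibitors 9 were lower (median -0.28), none by 2-fold. The differences were -0.92 for Spry1, -0.75 for Phlda1, -0.56 for Dusp1 and -0.43 for Spred2, and Spry2, Errfi1, Dusp7, Dusp6 and Spred1 lay between -0.30 and -0.00, while Dusp10 was 0.68 higher. Under cyclic loess and under median centring 2 of the 10 were higher. In the ETS family 16 genes were kept and their median of -0.05 turned to 0.01 under cyclic loess. Fli1 was 0.97 lower (7.92 and 6.96). Ets1 was 0.33 lower by its brightest probe set (7.80 and 7.47), and its second differed by -1.33. Etv4 was 1.49 lower from 4.65, a value at the level. Elk3, Etv3 and Etv6 were 0.16, 0.30 and 0.63 higher, but the second probe sets of Elk3 and Etv3 differed by -0.03 and -0.51. Elk1, Elk4, Etv5, Gabpa, Elf1, Elf2, Elf4 and Erf lay between -0.41 and 0.04, and Ehf was 0.96 higher with an array under the level.

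The Fos promoter (chr12:85473640-85473939, plus strand, RefSeq) is shown as that of the AP-1 factor furthest below 0 among those with both arrays measured, and it held AGGAAG in 1 place.
Fos: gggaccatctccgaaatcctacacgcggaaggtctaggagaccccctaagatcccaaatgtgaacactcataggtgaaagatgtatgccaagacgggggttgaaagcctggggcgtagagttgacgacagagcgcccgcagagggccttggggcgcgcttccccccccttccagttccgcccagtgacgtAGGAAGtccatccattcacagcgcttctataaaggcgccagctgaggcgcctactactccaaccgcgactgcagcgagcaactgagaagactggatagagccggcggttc

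Small leucine-rich proteoglycans, which coat collagen fibrils and bind growth factors, were higher in 8 of 8 kept genes (median 0.46), with both arrays measured in each. Beside Lum, Fmod (fibromodulin) was at 10.95 and 11.86 and Dcn (decorin) at 11.86 and 12.48, whereas Bgn (biglycan) was almost level at 12.54 and 12.61. The median stayed between 0.42 and 0.56 under every alternative tried. Lum and Dcn are also on the fibroblast marker list. The fibrillar collagens and their processing enzymes showed small differences the other way, with 15 of 18 lower (median -0.12) and none by 2-fold. The differences were -0.09 for Col1a1, -0.03 for Col1a2, -0.39 for Col5a3 and -0.24 for Lox, which crosslinks collagen. Basement membrane and other collagens had 14 of 23 lower (median -0.09) and Col8a1 alone at least 2-fold apart. Of 27 matricellular and elastic fibre proteins 15 were higher (median 0.04). Mfap4, a microfibril protein, was at 7.71 and 9.49, and Eln (elastin) was 1.17 higher from a value under the level, while Sparc and Thbs1 differed by -0.09 and 0.01.

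Matrix metalloproteinases and their inhibitors (TIMPs) were higher in 12 of 16 kept genes (median 0.27), none by 2-fold. Mmp13, a collagenase, was at 5.24 and 6.16 and Mmp3, a stromelysin, at 8.10 and 8.98, with Timp1 0.31 and Timp2 0.10 higher and Timp3 0.06 lower. Mmp12, 0.80 lower, ended under the level. Mmp3, Mmp9 and Mmp13 are genes that the study picked for RT-PCR on these arrays, so this list is not independent evidence of its direction. Unlike Mmp3 and Mmp13, Mmp9 was lower, at 6.26 and 5.97. In the PyMT pair the same genes stood at -4.33 for Mmp13, -2.67 for Mmp3 and -4.14 for Mmp9. Of other proteases, 15 of 26 were higher (median 0.07). Adamts15, an aggrecan-cleaving protease, was at 7.93 and 9.48, whereas its relative Adamts5 was at 8.60 and 7.35, and Dpp4, a dipeptidase, was 1.48 lower and under the level in the null.

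Of 8 kept TGF-beta and BMP ligands 6 were lower (median -0.34, between -0.45 and -0.23 under the alternatives), and Gdf10 was the exception by a wide margin. Tgfb2 was at 9.97 and 9.01, Inhba (the activin A subunit) at 10.05 and 9.36 and Inhbb at 11.08 and 10.86. Targets and inhibitors of the pathway did not share a direction, with 8 of 15 higher (median 0.04): Fst (follistatin, which binds activin) was at 6.28 and 4.87 and Ccn2, a common target, at 12.73 and 12.57. Insulin-like growth factor carriers went both ways. Igfbp3 (8.06 and 9.32) and Igfbp5 (8.88 and 9.89) were higher, Igfbp2 was 1.91 lower and ended under the level, and Igfbp4 and Igfbp7 were within 0.29. Igf1 itself was 0.58 higher (10.84 and 11.41). Among other ligands Hgf was at 6.78 and 5.86, Mdk (midkine) at 6.75 and 7.35 and Pdgfa level at 11.81 and 11.71. The receptor Gfra1, which binds GDNF, was 1.27 higher, and Pdgfra and Egfr differed by 0.12 and -0.06. In the Wnt list Fzd4, a receptor, was at 6.33 and 5.21, but its second probe set differed by 0.04. The inhibitor Dkk2 was at 10.83 and 10.16, and the list median of 0.10 ran from -0.13 to 0.13 over the settings.

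Prostaglandin and steroid genes were higher in 13 of 19 (median 0.16), 4 of them at least 2-fold (3.02% of all kept genes were). Ptgfr, the receptor of prostaglandin F2 alpha, was at 6.64 and 8.38 and 1.39 higher by its second probe set. Ptger2, a receptor of prostaglandin E2, was at 5.09 and 6.57, and Hpgd, which inactivates prostaglandins, was 1.79 higher from 4.21, under the level. Star, which carries cholesterol into mitochondria, was at 6.21 and 7.43. The synthase Ptgs2 was high on both arrays (12.34 and 12.16), and Akr1c18, which degrades progesterone, was 1.12 lower and under the level in the null. In the retinoid list the retinal dehydrogenase Aldh1a2 was at 6.77 and 5.42, while Rarres2 (chemerin, a chemoattractant) was at 11.51 and 12.34 and Crabp1, a retinoic acid carrier, at 9.44 and 10.12. Metallothioneins and antioxidant genes were higher in 13 of 20 (median 0.16), with Mt1 at 11.08 and 11.78 and Sod1 level at 13.42 on both. Integrated stress response genes were lower in 19 of 23 (median -0.14). Sesn2 was at 6.43 and 5.14, but its second probe set differed by 0.05, and Asns was within 0.09. Under cyclic loess 8 of these 23 were higher, against 3 as reported.

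Secreted signals of the immune system were mixed. Of 10 kept cytokines 5 were higher, and beside Il33 the other one at least 2-fold apart was Tnfsf11 (RANKL, the osteoclast differentiation ligand, which in the gland also signals to epithelium), at 8.41 and 9.95, or 0.79 apart with all its probe sets averaged. Of 15 chemokines 7 were higher (median -0.10). Cxcl12, the ligand of Cxcr4, was at 9.20 and 10.30 and Ccl8, which recruits monocytes, at 9.87 and 10.87. The related Ccl9 was lower by its brightest probe set (9.11 and 8.31) but 0.33 higher by its second, and Ccl7 was lower (10.03 and 9.65). Ccl27a and Ccl5 were 1.53 and 1.20 higher from values under the level. Of 13 serum amyloid and complement genes 9 were higher (median 0.56), Saa3 being an RT-PCR gene of the study. With no filter the median was 0.035 over 21 genes. Interferon-response and antigen presentation genes were near 0 (9 of 21 higher, median -0.03), with B2m at 12.64 and 12.61 and Gbp2, an interferon-induced GTPase, at 7.72 and 6.61.

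Serpinb genes, which encode intracellular protease inhibitors, were higher in 6 of 8 kept, of 13 on the array. Of granzyme and mast cell protease genes 7 of 7 kept were lower, of 16 on the array. Gzmk and Cma1 reached 4.63 on the normal Ets2-present array only, and Serpinb8 on the normal null array only. The filter thus fixed the direction of these genes. Both lists hold RT-PCR genes and lean on dim members, and the summed mast cell markers, which share genes with the latter list, went from 10.19 to 9.67, whose part was not tested. Of the Serpinb genes, Serpinb1a, Serpinb6b (6.39 and 7.45) and Serpinb9 (7.81 and 8.69) were higher with both arrays measured, Serpinb6a (11.38 and 10.94) and Serpinb9b (-0.78, from 6.98) were lower, and Serpinb1b, Serpinb8 and Serpinb2 had an array under the level. Of the proteases, Mcpt8 (7.27 and 6.09), Mcpt1 (5.69 and 4.76), Gzme (8.54 and 7.96) and Gzmd (6.89 and 6.64) were measured on both arrays, and Gzmk, Cma1 and Gzmc ended under the level.

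Developmental transcription factors had no shared direction (16 of 34 higher, median -0.05), and 9 of the 34 were at least 2-fold apart, against 5.42% of all kept genes. In 4 of the 9 an array was under the level, where 22.4% of genes were that far apart. Lhx8 and the limb and heart factor Tbx5 (7.70 and 8.80) were higher, as was Hand2, to 5.37 from 4.37, a value under the level. Beside Dlx2, the forkhead factor Foxc2 was at 7.96 and 6.71 and Sox11 at 5.79 and 4.79, and Eya4, Meox1 and Meox2 ended under the level (3.69, 3.60 and 3.25). Mesenchymal factors of high level did not move with them: Prrx1 was at 12.18 and 12.42, Zeb1 at 11.65 and 11.71 and Nr2f2 at 10.79 and 10.88. HOX genes, which mark position along the body axis, were higher in 11 of 22 (median 0.02). Hoxc13 was at 7.87 and 6.52 and Hoxd9 at 7.71 and 8.76, while Hoxc8 (10.34 and 10.31) and Hoxa10 (10.74 and 11.02) were nearly level. Hoxd10, next to Hoxd9, was 1.06 higher from a value under the level.

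Growth and housekeeping lists moved little. Replication genes were higher in 24 of 30 (median 0.10), with Pcna at 11.12 and 11.03 and Rrm2 at 12.24 and 12.42, and mitosis genes in 20 of 29 (median 0.11), with Top2a at 10.66 and 10.77. In the PyMT pair the replication median was -0.66. Oxidative phosphorylation genes were higher in 37 of 57 (median 0.09), and cytosolic ribosomal proteins in 15 of 34 (median -0.01), a sign that turned under cyclic loess (0.01) and median centring (0.01). Contractile genes of myofibroblasts had a median of 0.02 by their brightest probe sets, with Actg2 at 10.19 and 9.13. Acta2 was at 13.08 and 13.05 by its brightest probe set, but its second differed by -1.37.

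Among 23 secreted angiogenic factors 15 were higher (median 0.05), 3 at least 2-fold higher and 1 lower (3.02% and 2.41% of all kept genes were). Ang2, an angiogenin of the ribonuclease family, was at 7.12 and 8.71. It alone of the 3 was measured on both normal arrays. Vegfb was at 4.07, under the level, and 5.59, or 0.96 higher with low values raised. Vegfb reached the level on the normal null array only, so the filter fixed its direction. Pgf, 1.04 higher, was under the level on both arrays, and Edn1 was lower as above. Integrins and adhesion molecules were split 10 to 10 of 21, with Mcam at 6.18 and 5.16. Cholesterol synthesis genes were higher in 12 of 19 (median 0.13), genes of hypoxia and glycolysis in 8 of 22 (median -0.10, Adm at 8.68 and 7.75), solute carriers in 11 of 18 (median 0.20) and G1 cyclins and CDK inhibitors in 15 of 20 (median 0.11). Tendon and cartilage genes were higher in 5 of 10, with Prg4 (lubricin) at 5.08 and 6.75 against Tnmd and Thbs4 on the lower side. The 10 RT-PCR genes of the study, chosen on these arrays, had 7 higher (median 0.90).

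The same genes were read in the PyMT pair, which shares no array with the normal pair. Of the 118 genes at least 2-fold higher in normal Ets2-null fibroblasts with both arrays measured, 59 were also higher without Ets2 in the PyMT pair, 18 of them at least 2-fold, and 21 were at least 2-fold lower there. Of the 81 lower genes 39 were lower in the PyMT pair, 18 at least 2-fold, and 14 were at least 2-fold higher. Among all 7473 genes with both normal arrays measured, 4.36% were at least 2-fold higher and 6.85% at least 2-fold lower in the PyMT pair. The median PyMT difference was -0.00 for the first set and 0.06 for the latter. S100a3, Serpinb1a and Nrep were at least 2-fold higher in both pairs. Il33 (6.26 and 6.26), Gdf10 (5.39 and 5.33), Egfl6 (3.06 and 3.26) and Thbs4 (3.47 and 3.53) differed little in the PyMT pair and lay below their normal levels, the last 2 under 4.63. The difference between the pairs was not tested.

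Promoter letters were counted as a description. With both normal arrays at or above 4.63, CCGGAA or its reverse complement was in 14 of 88 promoters of genes at least 2-fold higher (15.9%) and in 12 of 64 of those at least 2-fold lower (18.8%), against 31.0% of 6094 promoters of all such genes and 15.2% of all 27025 promoters. AGGAAG was in 35.2% and 39.1% against 32.4%, and the AP-1 motif TGANTCA, which reads the same on both strands, in 6.82% and 4.69% against 4.66%. Neither set held CCGGAA more often than the genes measured with it.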

How the data were processed

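The deposited values were on a log2 scale, made with RMA per the submitters' processing notes without a version. They covered 22690 probe sets on 4 arrays, and 64 were controls. In that method, probe signals are background-corrected, quantile-normalized and summarized, which compresses differences between dim probe sets. Scanner files were not used here, so detection calls were not made, and with 1 array a group the number of arrays limits the precision. The array's probe sets were named through the platform annotation (1 gene for 20393, several for 691, none for 1606), 20364 of them matched to the mouse RefSeq annotation, with 0 symbols updated. That annotation served for names, neighbours and promoters. The genome build of the array design is not given in the sources used here.

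A gene with several probe sets took the one brightest on average across the series and was kept if its highest value reached the 40th percentile of the table (4.63). Differences were taken between the normal arrays and counted at 2-fold and 4-fold. Alternatives were the 60th percentile (6.78), no filter, both normal arrays at the level, low values raised to it, cyclic loess (limma 3.58.1 in R 4.3.3), median centring and the mean over probe sets. Named were Ets2, genes at least 4-fold apart, the 12 lowest and highest with both normal arrays at the level, up to 10 a direction by 2 probe sets, and in each of 53 lists the members at least 2-fold apart, the extremes and the 3 brightest, with the kept members of the Serpinb, S100, granzyme, ETS, AP-1 and MAPK lists. A few others were named after their values were seen. Members and lists were chosen with earlier results of these data known. The scripts (Python 3.11.15, pandas 2.3.3) were tested on simulated data.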

Additional observations from a re-analysis of the deposited data

Results flagged for a closer look

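In 8 named genes with every array at or above 4.63, the Ets2-null minus Ets2-present difference was at least 2-fold in opposite directions in normal and PyMT fibroblasts. Lower in the normal null array and higher in the PyMT one were Col8a1 (-1.82 and 1.24), Dio2 (-1.50 and 1.59), Adamts5 (-1.25 and 1.52) and Mcam (-1.02 and 1.78). The other direction was seen for Saa3 (2.02 and -2.49), Pcsk5 (1.66 and -1.66), Igfbp3 (1.26 and -1.27) and Cxcl12 (1.11 and -1.53). In the normal pair the second probe sets of Adamts5 (-0.765) and Cxcl12 (0.811) fell short of 2-fold. Those of Col8a1 (-1.438) and Pcsk5 (1.663) did not, and the other genes had 1 kept probe set. Of the 118 genes higher by 2-fold with both normal arrays measured, 21 were reversed by as much in the PyMT pair. Of the 81 lower ones, 14 were. Those counts set no limit on the PyMT levels. With 1 array a group, the difference between the pairs was not tested.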

How the results depend on the processing

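No paired analysis was possible because each group has 1 array, and for the same reason no array could be left out. Counts depended on how dim values were treated. With the filter at the 60th percentile there were 2 genes at least 4-fold lower, against 16 genes at least 4-fold higher. There were then 59 genes at least 2-fold lower, against 82 genes at least 2-fold higher. With both normal arrays required at the level, the counts in this order were 0, 12, 81 and 118, and with low values raised to the level 1, 16, 104 and 143. With no filter 338 genes were at least 2-fold lower. Cyclic loess, median centring and averaging of probe sets kept all 4 counts within 1.5 times. Of the 32 genes at least 4-fold apart, 32 remained so under cyclic loess, under median centring and with no filter, 23 with probe sets averaged, 18 at the 60th percentile, 17 with low values raised and 12 with both arrays required. Among list medians, that of serum amyloid and complement was 0.035 with no filter, that of Serpinb genes 0.29 with no filter, and that of granzymes and mast cell proteases -0.58 at the 60th percentile, -0.30 with no filter and -0.58 with low values raised. Endothelial markers turned from -0.59 to 0.60 with both arrays required (3 genes left), and came to -0.057 with no filter and 0.00 with low values raised. Pericyte markers turned from -0.31 to 0.25 at the 60th percentile (4 genes left). These settings change which dim genes enter or the values they hold, and the cause of the shifts was not tested further. Differences of named genes were taken again with low values raised, under cyclic loess, under median centring and with probe sets averaged. Of these, 1174 stayed within 0.48 (the SD of disagreement between probe sets) of the reported value, 70 moved further and 0 that were at least 2-fold apart turned sign. Raising low values cannot turn a sign, and median centring shifts every gene alike, so the last count says little.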

Other observations

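By chromosome, with both normal arrays at or above 4.63, the share of genes at least 2-fold higher in the null ran from 0.692% on chromosome 15 to 5.47% on chromosome 14, where 15 of 274 genes were higher and 4 lower. The next chromosome, 16, had 2.38%. The 15 genes of chromosome 14, named after their values were seen, include Gdf10, Clu, Chdh, Tnfsf11, Ptger2, Kcnma1, Ang2, Gch1, Pnoc and Scara3. In the PyMT pair 9 of the 274 (3.28%) were at least 2-fold higher. Of all kept genes 5.42% were at least 2-fold apart, and in 32 of 8657 neighbouring pairs in the RefSeq order both genes were. In 20 of the 32 they differed in the same direction, and in the rest in opposite directions. Whether this exceeds what unlinked genes would give was not tested. On chromosome 14 the pairs of shared direction were Chdh with Cacna1d, Ptpn20 with Gdf10, Scara3 with Clu and Zfp395 with Pnoc, all higher. Pibf1 and Klf5 there went opposite ways (1.32 and -1.04, each with an array under the level). Pairs of shared direction elsewhere included Saa3 with Saa1, Serpinb1a with Serpinb6b and Hoxd10 with Hoxd9. Cacna1d, Ptpn20, Saa1 and Hoxd10 had an array under the level.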
